A study of Mus musculus with 2 samples.

Results

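Glycolysis splits glucose into pyruvate in a chain of cytosolic enzyme steps, and lactate dehydrogenase turns pyruvate into lactate. Gluconeogenesis runs most of the chain backwards and needs its own enzymes to pass the irreversible steps. Adult liver is a main site of gluconeogenesis and uses liver forms of several of these enzymes, whereas fetal and growing cells mostly rely on forms that are found in many tissues. The set described here holds 35 mouse genes: the glycolytic enzymes, lactate dehydrogenase, the enzymes particular to gluconeogenesis, the PFKFB enzymes that make and remove the activator of phosphofructokinase, and the kinases that switch off pyruvate dehydrogenase. Its members were chosen by the gene name that the array gives to a probe, with Pkm2 as the older name of Pkm. Of the 35 genes, 34 had at least 1 probe, 58 probes in all, among 20053 named genes on the array, and no probe carried the name Pck1. For 51 of the 58 probes the transcript record on the array also named that member in RefSeq, for 0 it named another gene, and for 7 it was not matched.

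The cells were expandable hepatoblasts (eHBs), liver progenitor cells of C57BL/6 mice, kept on Matrigel or laminin in a defined medium. The medium contained insulin, nicotinamide, EGF (a growth factor), CHIR99021 (which blocks the kinase GSK3), E-616452 (which blocks a TGF-beta receptor) and the lipids LPA and S1P, and was the same for both groups. Cells at passage 5 formed one group and cells at passage 20 the other, with 1 array of each, and the labels say that they came from separate experiments, so passage and experiment cannot be told apart. No difference below has a replicate check, no test was possible, and "higher" and "lower" compare these arrays only.

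A level is the log2 signal of a probe minus the 75th percentile of its array, and a difference is the passage 20 level minus the passage 5 level. The 75th percentile was a signal of 1085 for the early and 853 for the late culture. A gene is represented by its brightest probe, and levels of different probes cannot be set against each other because each probe binds with its own strength. A gene counted as measured when the scanner software marked that probe as well above background on 1 array or both, and as different at 2-fold, which is 1 on the log2 scale. The only error that the arrays give is that of repeat spots. Over 108 probes with at least 9 spots the median SD between spots was 0.054 at passage 5 and 0.058 at passage 20 (log2), which leaves out the spread between cultures, RNA preparations and arrays. Of 7 hepatoblast markers 6 were measured: Afp, Hnf4a and Foxa2 differed by 0.09, -0.21 and -0.11, and Cdh1 was 2.89-fold higher. Epcam was 2.24-fold lower (-0.57 on the log2 scale with normexp background correction, another background method). Gpc3 was lower by at least 9.49-fold (-3.25 on the log2 scale, with a bound of -2.02 under normexp), and Dlk1 was above background on neither array. Of 6 mature hepatocyte markers, Apoa1 was above background at passage 5 only (signals of 143 and 24.3), and Alb, Ttr, Cyp3a11, Cyp7a1 and Tat were above it on neither array. All 4 cholangiocyte markers were above background on both arrays. Spp1 was 6.83-fold higher at passage 20, and Krt19, Krt7 and Sox9 differed by -0.52, -0.40 and -0.51. The cultures also differed in sex-linked transcripts, with Xist 36.5-fold higher and Ddx3y, a gene of the Y chromosome, lower by at least 21.4-fold at passage 20. The difference in sex-linked transcripts falls together with passage, so it cannot be told apart from passage for any member, X-linked or not. Whether it moved with the X-linked members Pgk1, Pfkfb1 and Pdk3, which differed by -0.02, 0.25 and 0.73, was not tested.

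Of the 34 genes on the array, 29 were measured, 27 of them on both arrays, and their differences had a median of -0.02 against 0.07 over all 11798 measured genes. The bifunctional enzyme gene Pfkfb2 was the 1 member at least 2-fold higher at passage 20 (3.45% of the measured members), where 3.26% of all measured genes were. Hk2, Eno3 and Fbp2 were at least 2-fold lower (10.3%), where 5.74% of all measured genes were, a difference that rests on 3 genes. The other 25 (86.2%) lay within 2-fold, against 91.0% of all measured genes, and among them is Eno2, for which the dim array allows no fold. Differences were under 0.3 in size for 15 members (51.7%), as for 51.7% of all measured genes. Of the members 17 (58.6%) lay below 0 and 12 (41.4%) above it, against 42.4% and 57.4% of all measured genes. Eno2 enters these counts with its bound of -0.002. The split about 0 also counts members so close to 0 that no direction can be read. In RNA of whole cultures, fewer cells of a type and less RNA per cell cannot be told apart.

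**Figure D1:**
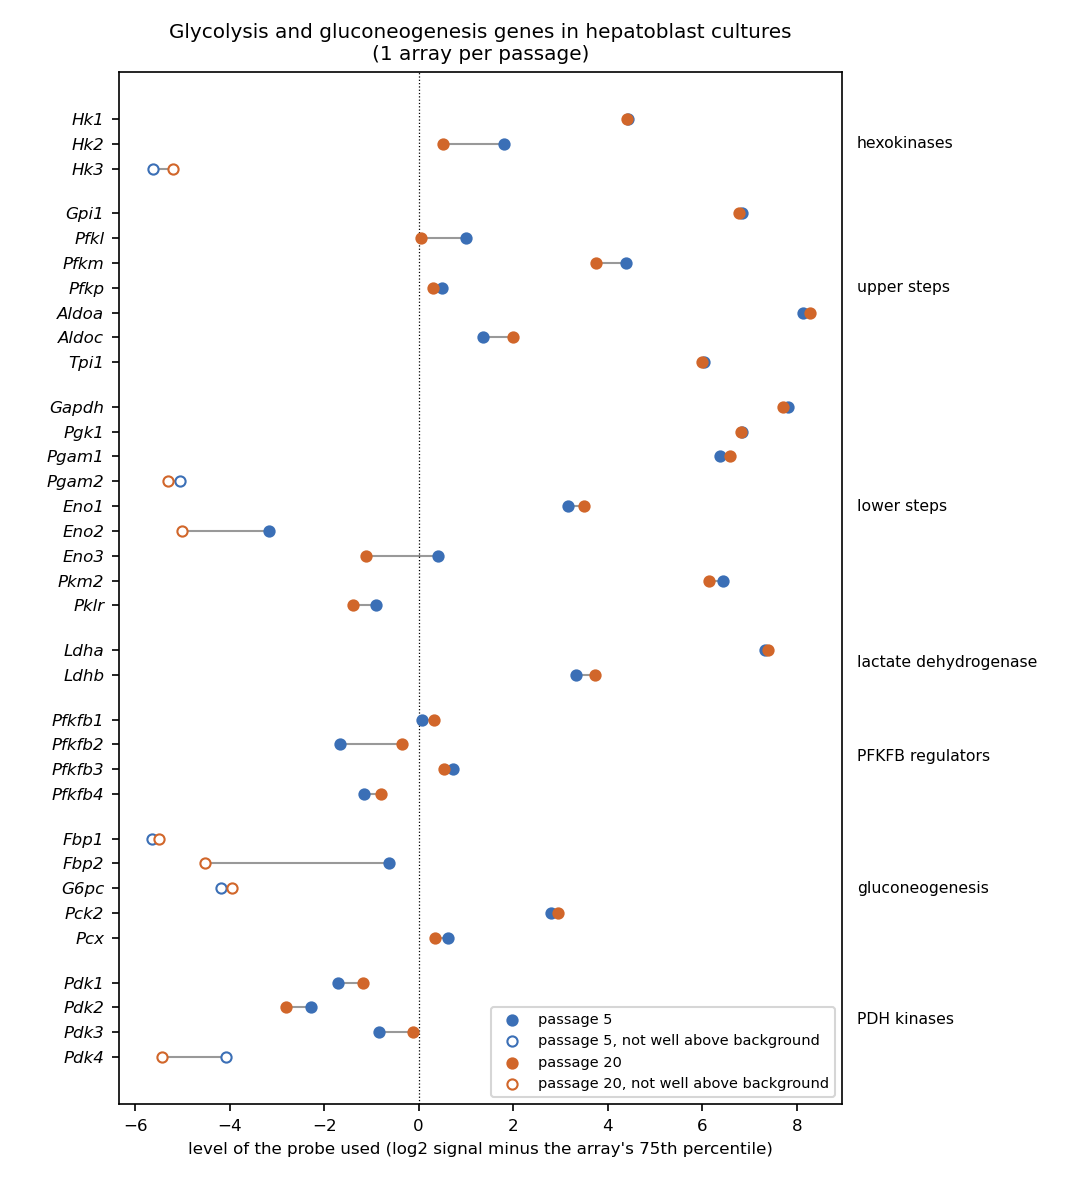
Level of each of the 34 members on the array at passage 5 (blue) and passage 20 (orange), as log2 signal minus the array's 75th percentile, with 1 array per passage and genes grouped by role. Filled points are well above background and open points are not. Only the distance between the points of a gene can be read, since different probes have different strengths. The points nearly coincide for Hk1, Gpi1, Tpi1 and Pgk1 and lie far apart for Fbp2, Eno3, Hk2 and Pfkfb2. They also lie far apart for Eno2 and Pdk4. Where a point is open, as for Fbp2, Eno2 and Pdk4, the distance is not a measured fold.

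Some of the probes can be shown because they cross an exon junction inside the transcript. The spans are those of the array files (build mm9) and are longer than the 60 bases of a probe because they include the intron between the exons. The probes below belong to the genes Fbp2, Pfkp and Pklr, each the probe used, and to Pfkfb2, for which it is another probe than the one used. They are given 5′ to 3′ in lower case with no part marked, to show what sequence each of these values was read from. The Fbp2 probe spans chr13:62950852-62955367 on the minus strand, the Pfkfb2 probe chr1:132595301-132595804 on the minus strand, the Pfkp probe chr13:6581718-6583872 on the minus strand and the Pklr probe chr3:88948907-88949425 on the plus strand.
Fbp2: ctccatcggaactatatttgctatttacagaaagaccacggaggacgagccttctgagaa
Pfkfb2: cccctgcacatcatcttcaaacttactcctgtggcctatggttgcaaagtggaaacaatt
Pfkp: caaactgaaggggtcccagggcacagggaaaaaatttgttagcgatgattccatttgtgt
Pklr: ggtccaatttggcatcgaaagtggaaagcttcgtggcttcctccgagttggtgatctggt

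Hexokinases trap glucose in the cell by phosphorylating it. Hk1, the form found in most tissues, had a level of 4.42 at passage 5 and 4.41 at passage 20, a difference of -0.01. Hk2, a form typical of muscle and of many growing cells and known to be inducible by insulin and hypoxia, had a signal of 3782 at passage 5 and 1226 at passage 20. Relative to the array scale its level went from 1.80 to 0.52, so it was 2.43-fold lower, and 3.61% of all measured genes had a lower difference. Hk3 was above background on neither array. The difference of Hk2 minus that of Hk1 was -1.27 by the probes used. It depends on the Hk1 probe, since the other measured probes of Hk1 gave between -1.12 and 1.23. The 1 probe of Hk2 lies at chr6:82675056-82675115 on the minus strand (mm9), so no other probe checks its value.

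Hk1 shows how much a value can hang on the probe. Of its 6 probes, 5 were measured, and they gave -0.01, -1.12, -1.09, -0.32 and 1.23. Those at -1.12, -1.09 and -0.32 lie within 2.46 kb of the probe used, the probe at 1.23 lies 46.3 kb away, and the probe above background on neither array lies 89.2 kb away. The probe used had a signal of 23254 at passage 5, and the signals of the other measured probes lay between 186 and 1578 there. Which transcripts of Hk1 each probe reads was not tested.

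The next steps turn glucose 6-phosphate into triose phosphates. Gpi1, the isomerase, had a level of 6.85 at passage 5 and 6.79 at passage 20, a difference of -0.06 over 10 spots. Phosphofructokinase commits sugar to glycolysis, and its liver, muscle and platelet forms are encoded by Pfkl, Pfkm and Pfkp. Pfkl had levels of 1.01 and 0.05 and was 1.94-fold lower at passage 20, just inside 2-fold. Pfkm had levels of 4.39 and 3.76 and was 1.54-fold lower. Pfkp had levels of 0.49 and 0.31, a difference of -0.19, while its other probes gave 1.00 and 0.09. All 3 genes were below 0 by the probe used, but with the mean over probes Pfkp was at 0.30, and Pfkl passed 2-fold in 3 of 11 alternative treatments of the data.

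Aldolase splits the sugar into triose phosphates. Aldoa, the form of muscle and most growing cells, had levels of 8.13 and 8.27, a difference of 0.14, with its other probe at 0.25. Aldoc, best known from brain, had levels of 1.36 and 2.00 and was 1.55-fold higher at passage 20. The triose isomerase Tpi1 had levels of 6.04 and 6.00, a difference of -0.04, while its other probe gave -0.60. Of the 7 measured genes of these upper steps, 0 were 2-fold different, and their median was -0.06.

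The lower steps yield ATP and NADH. The dehydrogenase Gapdh had levels of 7.81 and 7.70, a difference of -0.11, with its other probe at -0.09. The phosphoglycerate kinase Pgk1 had levels of 6.84 and 6.82, a difference of -0.02 over 10 spots, with its other probe at -0.05. The mutase Pgam1 differed by 0.21 (levels of 6.38 and 6.59), and the muscle mutase Pgam2 was above background on neither array. The array file places the Pgk1 probe on chromosome 3, whereas RefSeq has the gene on chromosome X. Genes such as Gapdh and Pgk1 have many processed copies in the mouse genome, and whether a probe also binds transcripts of a copy was not tested.

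The enolases differed among themselves. Eno1, the form of most tissues, had levels of 3.15 and 3.50, a difference of 0.35. Eno3, the muscle form, had a signal of 1436 at passage 5 and 392 at passage 20. Its level went from 0.41 to -1.12, so it was 2.88-fold lower, and 2.54% of all measured genes had a lower difference. The neuronal form Eno2 was above background at passage 5 only, with a signal of 120, close to the background limit, so no fold is given. The difference of Eno3 minus that of Eno1 was -1.88. Eno3 has 1 probe, at chr11:70475929-70475988 on the plus strand (mm9).

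Pyruvate kinase ends the chain. Pkm2, the array's name for the gene of the forms of muscle and growing cells, had levels of 6.43 and 6.14, a difference of -0.29. Its other probes gave -0.57 at a distance of 0.148 kb and 0.64 at a distance of 6.51 kb, so the probes did not share a direction. Pklr, the form of liver and red cells, had levels of -0.90 and -1.38, a difference of -0.48. Of the 8 measured genes of the lower steps, Eno3 was 2-fold lower and 0 were 2-fold higher, with a median of -0.07. Lactate dehydrogenase has subunits encoded by Ldha and Ldhb. Ldha had levels of 7.32 and 7.39, a difference of 0.06, with its other probe at -0.14, and Ldhb had levels of 3.33 and 3.74, a difference of 0.41.

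**Figure D2:**
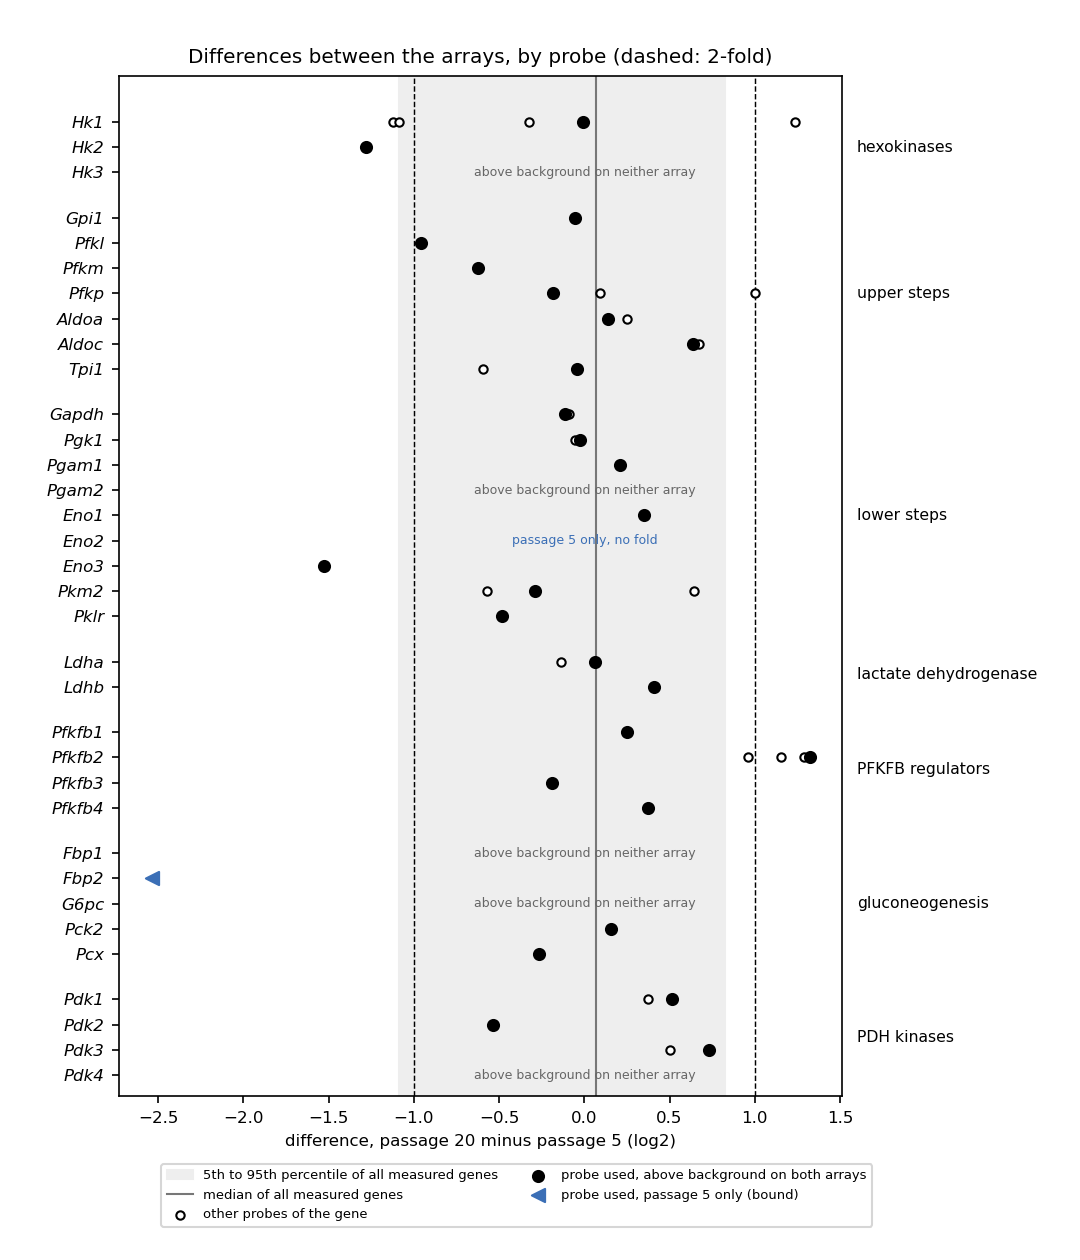
Difference of each member between the arrays (passage 20 minus passage 5, log2), 1 array each, with the probe used in black, the other measured probes as open circles and a gene above background at passage 5 only as a triangle at its bound. The grey band runs from -1.09 to 0.83, the 5th to the 95th percentile of all 11798 measured genes, the grey line is their median and the dashed lines mark 2-fold. Hk2, Eno3 and Fbp2 lie left of the band and Pfkfb2 right of it, while the probes of Hk1 spread over both dashed lines.

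The PFKFB enzymes set the amount of a regulatory fructose bisphosphate, distinct from the intermediate of the chain. This regulator activates phosphofructokinase and restrains fructose bisphosphatase. Each PFKFB enzyme carries a kinase and a phosphatase in the same protein. Pfkfb2, the form first known from heart, had a signal of 341 at passage 5 and 669 at passage 20. Its level went from -1.67 to -0.35, so it was 2.50-fold higher, and 98.4% of all measured genes had a lower difference. Its other probes gave 1.29, 0.96 (the probe whose sequence is shown above) and a bound of 1.15, so all 4 were higher at passage 20. They lie up to 9.18 kb from the probe used. Pfkfb1, the liver form, had levels of 0.07 and 0.32, a difference of 0.25. Pfkfb3, the form of many growing and hypoxic cells, had levels of 0.73 and 0.54, a difference of -0.19, and 2 of its 3 probes were above background on neither array. Pfkfb4 had levels of -1.16 and -0.79, a difference of 0.37. The difference of Pfkfb2 minus that of Pfkfb3 was 1.51.

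**Figure D3:**
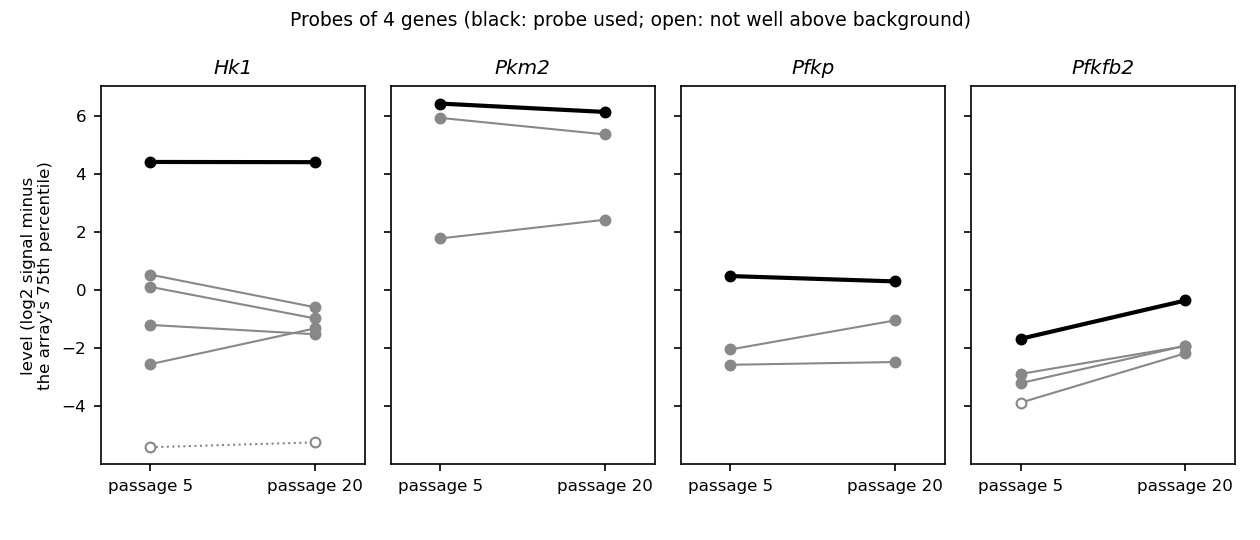
Level of each probe of Hk1, Pkm2, Pfkp and Pfkfb2 at passage 5 and passage 20 (log2 signal minus the array's 75th percentile, 1 array each), with the probe used in black, other probes in grey and open points not well above background. The 4 probes of Pfkfb2 all run upward, whereas those of Hk1, Pkm2 and Pfkp run in both directions.

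Gluconeogenesis has enzymes of its own at the irreversible steps. Of the 6 genes listed for it, Pck1, the cytosolic carboxykinase of adult liver, had no probe of that name, and Fbp1, the liver bisphosphatase, and G6pc, which releases free glucose, were above background on neither array. Fbp2, the muscle form of fructose bisphosphatase, was well above background at passage 5 with a signal of 699 and not at passage 20, where its signal was 37.3. It was at least 5.81-fold lower at passage 20, a bound against the lowest signal counted as well above background on that array. With normexp background correction the bound was -1.52 log2 in place of -2.54, and with no filter the measured difference was -3.88. Pck2, the mitochondrial carboxykinase, had levels of 2.79 and 2.95, a difference of 0.15. Pcx, the pyruvate carboxylase that feeds oxaloacetate, had levels of 0.62 and 0.35, a difference of -0.26.

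Eno3 and Fbp2 are forms best known from muscle, and so is Hk2 in part. Other members named above as forms of muscle did not reach 2-fold. By the probes used, Pfkm, Pkm2 and Aldoa differed by -0.62, -0.29 and 0.14, and Pgam2 was above background on neither array. Of the muscle markers, Acta1 was above background at passage 5 only and was at least 3.87-fold lower at passage 20, a call that normexp ends (a bound of -0.79), while Myh1, Ckm and Des were above background on neither array. The summed signal of the 4 muscle markers before scaling was 540 at passage 5 and 160 at passage 20, of which Acta1 alone gave 466 and 92.3. Of the stellate and fibroblast markers, Dcn was at least 15.9-fold lower (a bound of -3.99 on the log2 scale, and of -2.97 with normexp), Acta2 differed by -0.10 with another probe at -3.11, and Col1a1, Col1a2, Col3a1 and Pdgfrb were above background on neither array. The part of other cells in the differences of Eno3, Fbp2 and Hk2 was not tested.

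Pyruvate dehydrogenase kinases keep pyruvate out of the mitochondrial cycle. Pdk1, a kinase known to be induced in hypoxia, had levels of -1.70 and -1.18, a difference of 0.52, with its other probe at 0.37. Pdk3 had levels of -0.85 and -0.12 and was 1.66-fold higher, with its other probe at 0.50. Pdk2 had levels of -2.28 and -2.82, a difference of -0.54 that became 0.05 with normexp background correction. Pdk4, the kinase of fasting, was above background on neither array. None of the 3 measured kinases reached 2-fold, and the difference of Pdk2 minus that of Pdk3 was -1.27.

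Genes around the pathway were counted in further lists. Of 57 such genes, 56 were on the array and 48 were measured; 1 was at least 2-fold higher and 3 were at least 2-fold lower, with a median of -0.00033. These are 2.08% and 6.25% of the list, near the 3.26% and 5.74% of all measured genes. The 3 lower genes were Gpd1, the cytosolic glycerol phosphate dehydrogenase (13.7-fold lower, or -3.78 on the log2 scale, and -3.00 with normexp), Galm, the mutarotase of hexoses (2.91-fold lower), and Ppargc1a, a coactivator of gluconeogenic genes in liver (3.13-fold lower, its other probe at -1.17). With normexp background correction Galm was at -0.99, just inside 2-fold. The higher gene was Myc, a transcription factor known to act on glycolytic genes, at 3.47-fold with its other probes between 1.44 and 1.80. Klf15, another regulator of gluconeogenic genes, was above background at passage 5 only, with a bound of -0.98. Hif1a, the hypoxia factor, differed by -0.10. Pyruvate dehydrogenase and pyruvate entry had 8 measured genes, the pentose phosphate pathway 7 and glycogen 7. Of these, 0 were 2-fold different by the probes used, with ranges of -0.14 to 0.13, -0.15 to 0.75 and -0.37 to 0.38 in that order. Some other probes of the pyruvate and pentose phosphate genes lay outside these ranges, furthest for Pdp1 (-0.95) and Pgd (-0.74), both inside 2-fold.

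Promoters of the 3 lower members are shown because these genes shared a direction. Each window is the 250 bases upstream of a RefSeq gene start (GRCm38.p6), 5′ to 3′ along the gene, with capitals for matches of ACGTG (the core of the hypoxia response element), CACGTG (an E-box, which holds ACGTG on both strands) and GGGCGG (a GC box), each searched on both strands. The windows are chr6:82774455-82774704 on the minus strand for Hk2, chr11:70656926-70657175 on the plus strand for Eno3 and chr13:62858401-62858650 on the minus strand for Fbp2.
Hk2: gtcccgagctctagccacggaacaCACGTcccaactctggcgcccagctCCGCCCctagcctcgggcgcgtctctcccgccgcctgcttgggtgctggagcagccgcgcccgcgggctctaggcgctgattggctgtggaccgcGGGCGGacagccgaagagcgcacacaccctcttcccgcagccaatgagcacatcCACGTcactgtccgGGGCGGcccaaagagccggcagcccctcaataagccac
Eno3: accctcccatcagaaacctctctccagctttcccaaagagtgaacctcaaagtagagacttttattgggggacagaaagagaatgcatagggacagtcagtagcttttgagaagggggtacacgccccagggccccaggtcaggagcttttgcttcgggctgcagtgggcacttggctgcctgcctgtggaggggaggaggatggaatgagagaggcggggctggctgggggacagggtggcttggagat
Fbp2: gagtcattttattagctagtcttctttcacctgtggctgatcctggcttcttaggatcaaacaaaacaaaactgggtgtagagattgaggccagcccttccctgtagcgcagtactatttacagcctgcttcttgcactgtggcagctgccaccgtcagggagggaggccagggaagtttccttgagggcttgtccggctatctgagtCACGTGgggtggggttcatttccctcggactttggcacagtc

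The window of Hk2 held 2 matches of ACGTG and 3 of GGGCGG, that of Fbp2 held 1 match of CACGTG, and that of Eno3 held none of the 3 motifs. Their share of G and C was 69.6% for Hk2, 57.2% for Eno3 and 52.4% for Fbp2. Over the members, 56 windows were found for 35 genes, since some genes have several starts. ACGTG was present in 32.1% of these windows against 16.6% of all 32851 windows, CACGTG in 12.5% against 6.02%, and GGGCGG in 41.1% against 32.7%. ACGTG was found in windows of 14 members. A match describes these letters only, and windows of the same gene may share sequence.

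The calls were compared over other treatments of the same arrays. Pfkfb2 stayed at least 2-fold higher, and Hk2 and Eno3 at least 2-fold lower, in each of the 11 alternatives other than the fold threshold. Fbp2 stayed at least 2-fold lower in each of the 10 that give it a value. Some of these could not move a call. The filter settings must return the reported values of Hk2, Eno3 and Pfkfb2. The mean over probes must return those of Hk2, Eno3 and Fbp2, which have 1 probe each. With no filter, Fbp2 can only fall below its bound. The other scalings and the authors' values all moved Hk2, Eno3 and Fbp2 further down, so they could hardly end a lower call. Keeping flagged spots left these genes almost unchanged. Only normexp moved them clearly towards 2-fold, to -1.21, -1.15 and -1.52. Normexp and the other scalings did move Pfkfb2 towards 2-fold, to 1.01 at the lowest with median centring. Centring on the array median or on the external spike-in RNA moved the median of all genes to -0.24 and -0.16 and that of the members to -0.33 and -0.25, and the member median minus that of all genes was -0.09 in both, as in the values reported. Under spike-in scaling 1.90% of all genes were 2-fold higher and 8.35% lower, against 3.26% and 5.74% above, and 1 member was higher and 4 were lower, Pfkl being added. The sign was kept in every alternative by 21 of the 29 measured members. Normexp and the other scalings all moved the median of all genes down from 0.07, so values just below 0 could hardly change sign. Hk1, Pgk1, Tpi1 and Gpi1, at -0.01, -0.02, -0.04 and -0.06, are among the 21, and no direction can be read for them. The other 8, Eno2 included, have small or probe-dependent values, except Pdk2. Pdk2 has 1 probe with a dim signal, at -0.54 as reported and 0.05 with normexp. For Aldoa, Ldha, Pgam1, Pck2 and Pfkfb1 no direction can be read either.

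**Figure D4:**
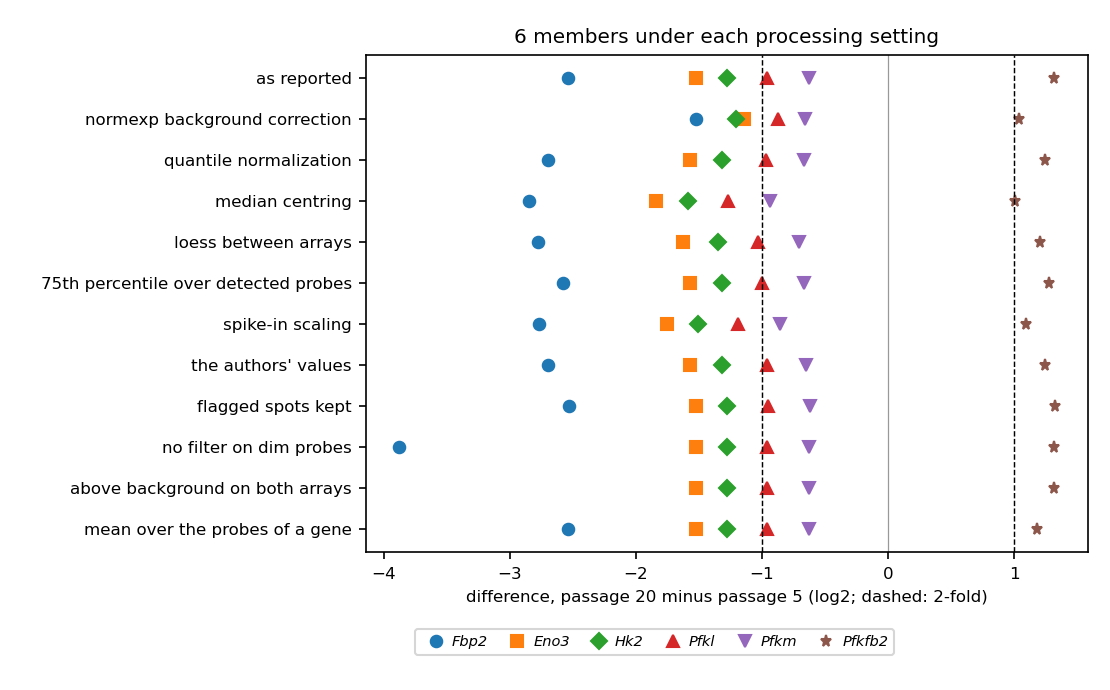
Difference (passage 20 minus passage 5, log2) of Fbp2, Eno3, Hk2, Pfkl, Pfkm and Pfkfb2 as reported and under 11 other treatments of the same arrays, with dashed lines at 2-fold. Eno3 stays between -1.84 and -1.15, Hk2 between -1.59 and -1.21 and Pfkfb2 between 1.01 and 1.32, while Pfkl crosses the line and Fbp2 moves with the treatment of dim signals. Fbp2 has no point where both arrays must be above background.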

How the data were processed

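Per the labels' protocols, amplified total RNA carried Cy3 and went on 1-colour Agilent arrays, 1 for each passage. Per the file headers, the scanner software was Agilent Feature Extraction 10.7.3.1. Its deposited spot intensity is background-subtracted and detrended, and raised to a surrogate value where it is not above noise. The mean and local background intensity, also deposited, served an alternative. The authors' deposited table of log2 values states no scale, centring or tool. Over all its rows the sorted values of the columns differ by at most 0.000609. Over the gene probes analysed, the columns have medians of 6.316 and 6.318 and correlate with the log2 signal at r = 0.99987 and 0.99986, so it was read as log2 and quantile-normalized.

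Of 43379 spots of 41158 gene probes on each array, 132 with an outlier flag were left out, and 0 were saturated; the share of probes well above background was 45.5% for the early and 46.1% for the late culture. Precision is limited by the number of arrays. Log2 signals were averaged over spots and the 75th percentile over gene probes was subtracted. For a gene above background on 1 array, the bright value was set against the higher of the dim value and that array's lowest value well above background (-3.32 at passage 5, -3.17 at passage 20), written as at least N-fold. Probe positions are mm9, and RefSeq names and promoters are GRCm38.p6. Analysis used R 4.3.3, limma 3.58.1 (normexp with offset 50, quantile, loess), Python 3.11.15 and pandas 2.3.3. The choice of probe, the difference and the 2-fold call were tested on changes simulated in brighter genes above background on both arrays. Every probe of a changed gene was given the same change, larger than 2-fold, with little noise. That test concerns the code only and cannot show how probes that disagree, or values near 2-fold, behave. The scaling of the arrays and the bound for genes above background on 1 array were not part of that test.

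By rule, all 35 members are accounted for by role, with both levels where measured, and genes of the further pathway lists are named where 2-fold different. Markers are named from the hepatoblast, hepatocyte, cholangiocyte, muscle, and stellate and fibroblast lists. Klf15, Hif1a, Xist and Ddx3y are named outside that rule, after their values were seen. The further pathway and marker lists leave out 3 genes that are not reported here, and their counts and medians are without these genes. The members and lists were chosen with earlier results of these data known. Alternatives were other background correction, scaling, filters, probe summaries and fold thresholds, and the authors' values.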

Additional observations from a re-analysis of the deposited data

How the results depend on the processing

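No paired analysis was possible because each passage has 1 array. The member median, -0.02 as reported, was -0.094 with normexp, -0.12 with quantile normalization, -0.33 with median centring, -0.14 with loess, -0.064 with the 75th percentile over detected probes, -0.25 with spike-in scaling and -0.10 with the authors' values. These settings move all genes, whose median ran from 0.05 with normexp to -0.24 with median centring. With no filter on dim probes 5 members were lower, Eno2 and Pdk4 being added, where 6.41% of all genes were. At 1.5-fold 3 members were higher (Aldoc and Pdk3 added) and 5 lower (Pfkl and Pfkm added), where 10.4% and 11.8% of all genes were; at 4-fold 0 were higher and 1 was lower (Fbp2), where 0.50% and 1.36% were. No called member reversed. Dim signal limits Fbp2, Eno2, Pdk2 and the 5 members above background on neither array. Pfkp was at 0.30 with the mean over probes, since that mean takes in its other probes at 1.00 and 0.09. Pdk2 was at 0.05 with normexp. Why the probes of Pfkp differ, and why Pdk2 changed sign, was not tested.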
